A study of Mus musculus with 10 samples.

Results

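Epiblast stem cells (EpiSC) are a self-renewing culture that resembles the epiblast of the gastrulating mouse embryo. Of the 373 EpiSC measured by single-cell RNA-seq, 151 held at least 1 transcript of *T* (brachyury) and 222 held none, and these sets of cells are described here. The cells were chosen by a measured value, the number of unique molecular identifiers (UMIs, each counted as 1 captured transcript) assigned to *T* in a cell. The EpiSC were 1 library among the 8 libraries and 2782 cells of a table that follows mouse embryonic stem cells (ESC) on the way to primordial germ cell-like cells. They were wild type cells of the E14Tg2a line, made from 2i ESC rather than from embryos, and kept on fibronectin in N2B27 medium with 20 ng/ml activin A and 12 ng/ml bFGF for at least 8 days. The day 2 embryoid bodies (d2 EB), used for comparison, came from the same wild type line by way of day 2 epiblast-like cells, in suspension in GK15 medium with BMP4, SCF, LIF and EGF. Each stage was sequenced as 1 library, so there was no replicate culture, cells of a library were not treated as replicates, and no test between groups was made. Intervals given here are 95% intervals that cover counting error alone.

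*T* encodes a T-box transcription factor that marks the primitive streak, the structure through which epiblast cells leave to form mesoderm and definitive endoderm. Its transcription in the embryo depends on WNT and Nodal signals. Activin, which acts through the Nodal receptors, is part of the media of both EpiSC and epiblast-like cells, at the same dose. At the anterior end of the streak, cells also express *Gsc*, *Foxa2*, *Lhx1*, *Mixl1* and *Eomes*, and from there come the node, the notochord and the endoderm, while the posterior streak yields mesoderm under BMP signals. Primed pluripotent cells in culture are known to include cells with such transcripts.

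Since *T* defined the comparison, the sequence just upstream of it is shown first. The mouse *T* gene (ENSMUSG00000062327) lies on the plus strand of chromosome 17. The 250 bases before its annotated start, from RefSeq on GRCm38.p6 (chr17:8434173-8434422, plus strand), are printed 5′ to 3′, with capitals marking the 2 motifs searched on both strands, the core bound by T-box factors (AGGTGT) and the core bound by TCF/LEF factors, the DNA-binding partners of β-catenin (CTTTGA).
*T* promoter: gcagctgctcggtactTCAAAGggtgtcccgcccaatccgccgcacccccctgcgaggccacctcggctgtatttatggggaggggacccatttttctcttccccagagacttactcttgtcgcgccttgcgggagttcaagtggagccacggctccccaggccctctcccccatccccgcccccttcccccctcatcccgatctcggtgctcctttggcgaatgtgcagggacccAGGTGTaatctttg
The TCF/LEF core began 234 bases before the start, on the opposite strand, and the T-box core began 14 bases before it. Across the 27025 genes of the promoter table, windows of the same length held the T-box core in 12.0% and the TCF/LEF core in 14.1%, and across the 7481 matched genes with enough UMIs for the comparison made below, in 9.01% and 10.1%. Neither core was in the windows of *Gsc* and *Lhx1* or in the 3 windows listed for *Foxa2*. Among the 71 matched genes that were at least 2-fold higher in cells with *T* (other than *T* itself), each core was found in 9 windows (12.7%). These matches are descriptions of letters and were not tested as binding sites.

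*T* was spread very unevenly over the EpiSC. The 373 cells held 1078 *T* UMIs, or 84.5 CPM (UMIs scaled to a total of 1000000 over the cells summed; Poisson interval 79.5 to 89.7). At least 1 UMI was found in 40.5% of the cells (Clopper-Pearson interval 35.5 to 45.7). Of the *T*-positive cells, 52 held 1 UMI, 23 held 2 and 76 held 3 or more, with a median of 3 and a highest value of 69. The 38 cells with 10 or more *T* UMIs carried 72.7% of all *T* UMIs, whereas the 52 cells with 1 UMI carried 4.82%. The variance of *T* UMIs per cell was 17.8 times their mean.

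*T* was scarce in most of the other stages. In ESC kept in 2i medium, a naive state that precedes the epiblast, 5 of 227 cells held a *T* UMI (2.20%, interval 0.719 to 5.07) and none held more than 1, where the median cell held 33971 UMIs, against 31587 in EpiSC. Apart from EpiSC and d2 EB, the libraries held *T* at 0.0896 to 0.571 CPM, in 1 to 5 cells each. Among them were epiblast-like cells of days 1, 2 and 3, at 0.364, 0.0896 and 0.284 CPM, under the activin A and bFGF doses of EpiSC. In d2 EB, 219 of 537 cells were *T*-positive (40.8%) and the level was 63.6 CPM. After each cell was thinned at random to 21089 UMIs, the share of *T*-positive cells was 34.6% of 335 EpiSC (interval 29.5 to 40.0), 33.0% of 397 d2 EB cells and 1.42% of 212 2i ESC. The thinning left out 38, 140 and 15 shallower cells, respectively. The share of cells that free *T* RNA within the EpiSC library would mark was not measured, and libraries with little *T* do not show it, so some of the 52 cells with 1 UMI could be of that kind.

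**Figure D1:**
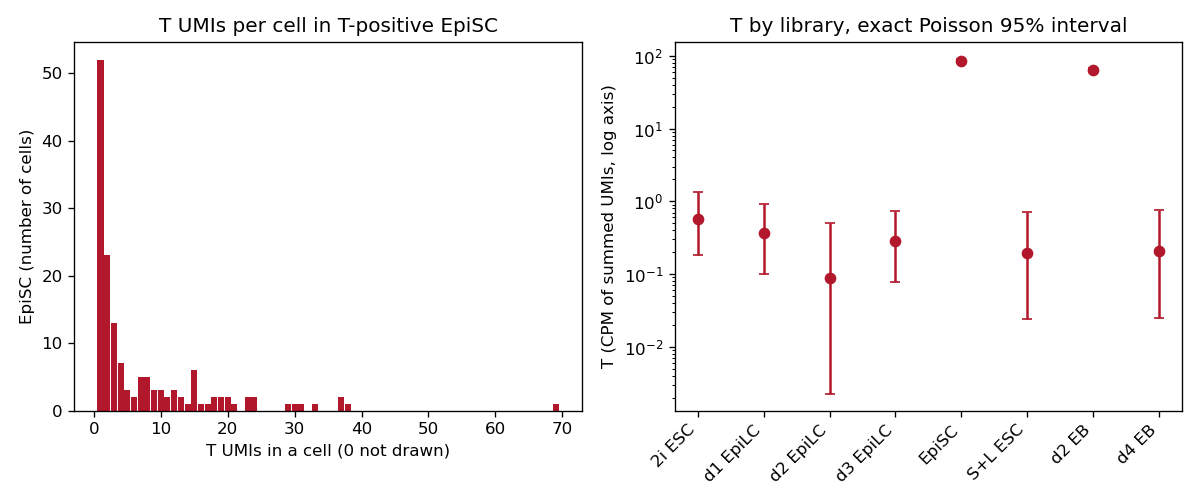
Left, number of EpiSC (y axis) by *T* UMIs in the cell (x axis) for the 151 *T*-positive cells, with a long tail to 69. Right, *T* in CPM of summed UMIs on a log axis for each of the 8 libraries with exact Poisson 95% intervals, where EpiSC and d2 EB lie above 60 CPM and the others below 1.

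The *T*-positive cells were somewhat deeper than the *T*-negative cells, with medians of 34223 and 30685 UMIs and of 5226 and 4933.5 genes per cell. The share of mitochondrial UMIs (median 3.63% and 3.41%) and of ribosomal protein UMIs (34.4% and 33.5%) was close in both. Scrublet marked 4 of 151 and 2 of 222 cells as doublets. Only 3 EpiSC barcodes also occurred in another library. *Fgf5*, a gene of the primed epiblast, was at 147 CPM in EpiSC, 96.1 CPM in day 3 epiblast-like cells and 0.228 CPM in 2i ESC. *Pou5f1*, which encodes the pluripotency factor OCT4, was at 1270 CPM in EpiSC and 1495 CPM in 2i ESC, so it cannot check the label. Against day 3 epiblast-like cells, EpiSC were higher for *Sox2* (126 and 32.3 CPM) and *Dnmt3b* (390 and 305 CPM). They were lower for *Otx2* (65.0 and 135 CPM) and *Utf1* (303 and 443 CPM). Of 6 fibroblast markers, *Lum* had 0 UMIs in all EpiSC, and *Dcn*, *Col3a1*, *Col1a1* and *Col1a2* had 1 to 16. *Thy1*, which other cells also express, had 20 UMIs in *T*-positive and 44 in *T*-negative cells (log2 ratio -0.66), and the summed level of the 6 was 5.13 and 8.02 CPM.

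To ask what else differed between cells with and without *T*, UMIs were summed over each set, and genes with at least 50 UMIs were compared by the log2 ratio of CPM + 1. The minimum counted the UMIs of both sets together, so a gene could reach it through the set where it was high. Of 9426 genes, 97 (1.03%) were at least 2-fold higher in *T*-positive cells and 21 (0.223%) at least 2-fold lower, and the median log2 ratio of all genes was 0.0026. At 1.5-fold the counts were 346 (3.67%) and 172 (1.82%). *T* itself, which chose the cells, is not counted. In thinned cells with *T* called again, and with no minimum applied there, 56 of the 97 remained at least 2-fold higher and all 97 kept their sign. With the 50 UMI minimum, 49 genes in all were at least 2-fold higher in those cells. Without the 5 cells with most *T*, which held 19.9% of the *T* UMIs, 91 of the 97 and 18 of the 21 remained past 2-fold.

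Transcription factors of the anterior primitive streak were 4 of the 10 genes with the highest ratios. The list of streak and nascent mesoderm factors had 14 members besides *T*, of which 7 reached 50 UMIs. All 7 were above 0, 5 were at least 2-fold higher, and their median log2 ratio was 1.85, or 1.08 in thinned cells and 0.73 over all 14 with no minimum. *Evx1*, which gave the median, reached the minimum through the *T*-positive cells, as did *Mixl1* and *Nkx1-2*. These values therefore describe the members that passed and nothing more. *Gsc*, a homeobox repressor of the organizer, stood at 105 CPM in *T*-positive cells (interval 96.9 to 114) and 26.6 CPM in *T*-negative cells (22.9 to 30.7), a 3.96-fold difference (3.35 to 4.68). *Lhx1*, a LIM homeobox factor of the same region, stood at 119.5 and 31.7 CPM (3.77-fold, 3.24 to 4.41). *Mixl1*, a homeobox factor of mesendoderm, stood at 30.8 and 6.05 CPM (5.08-fold, 3.62 to 7.27). The intervals of the groups did not overlap for these factors, but the share of all genes for which this holds was not counted. At these totals small differences also separate, as for *Pou5f1* (1082 to 1137 CPM and 1370 to 1425 CPM, a ratio of 0.79).

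Further streak factors followed at lower levels. *Evx1*, a homeobox gene of the posterior streak, had 49 UMIs in *T*-positive and 12 in *T*-negative cells, a log2 ratio of 1.85. *Eomes*, a T-box factor required for endoderm, was at 41.2 and 18.6 CPM (log2 ratio 1.11). *Cdx2*, a caudal-type factor of the posterior body, and *Nkx1-2*, a gene of the caudal epiblast, stayed under 2-fold with log2 ratios of 0.73 and 0.70. Factors that act once mesoderm has formed were scarcely detected in either set. *Mesp1* had 4 and 1 UMIs, *Tbx6* 3 and 3, *Mesp2* 2 and 2, and *Msgn1* had none. The caudal-type genes *Cdx1* and *Cdx4* had none either. *Snai1*, also a member of this list and below the minimum, went the other way with 15 and 27 UMIs (log2 ratio -0.39).

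Endoderm factors were higher together with those of the streak. Of 10 definitive endoderm genes, 8 reached 50 UMIs, all 8 were above 0, and 4 were at least 2-fold higher, against 1.03% of all genes. The median log2 ratio was 1.05. In thinned cells with *T* called again it was 0.71 over the same 8, or 0.53 with the minimum applied there. With 23 and 49 UMIs, *Cxcr4* and *Foxa1* did not reach the minimum in *T*-negative cells alone. These values therefore describe the members that passed. *Foxa2*, a forkhead factor of endoderm and node, was at 78.5 CPM in *T*-positive and 20.3 CPM in *T*-negative cells (3.87-fold, 3.20 to 4.71). The endoderm regulators *Gata6* and *Sox17* had log2 ratios of 1.47 and 1.35, and *Dkk1*, a secreted WNT inhibitor, 1.12. *Cer1* (secreted antagonist of Nodal, BMP and WNT), *Hhex*, *Cxcr4* and *Foxa1* lay between 0.85 and 0.99. In thinned cells with *T* called again, *Foxa2* kept a log2 ratio of 1.57, whereas *Sox17*, *Gata6*, *Cer1* and *Dkk1* were at 0.53, 0.23, 0.27 and 0.09. In the same thinned cells with *T* as called from all their UMIs these 4 genes were at 1.48, 1.19, 0.84 and 1.06, so their ratios depended on which cells with few *T* UMIs counted as positive.

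Of 6 node and notochord genes 2 reached 50 UMIs, *Foxa2* and *Chrd*, and both were at least 2-fold higher. *Chrd*, which encodes the BMP antagonist chordin, was at 15.7 and 4.64 CPM (3.39-fold, 2.25 to 5.22). With 33 UMIs in *T*-negative cells, *Chrd* reached the minimum through the *T*-positive cells. *Shh*, the signal secreted by node and notochord, had 19 UMIs in *T*-positive cells and 1 in *T*-negative cells, and *Nog*, encoding noggin, had 11 and 0. *Foxj1*, a regulator of cilia, had 24 and 19 (ratio 1.59, 0.83 to 3.06). All 3 missed the 50 UMI minimum. The notochord gene *Noto* had 1 UMI in all EpiSC.

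**Figure D2:**
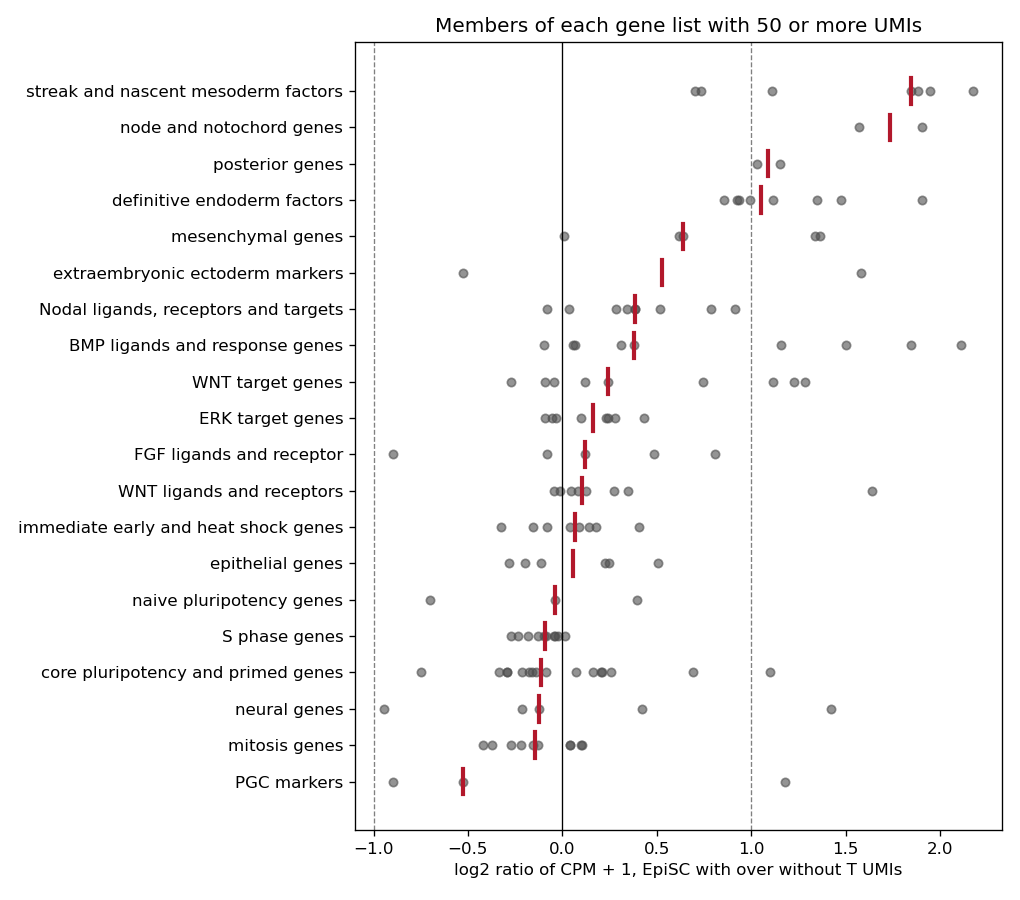
Log2 ratio of CPM + 1 between EpiSC with and without *T* UMIs (x axis) for the members of each gene list with 50 or more UMIs (points) and the list median (red bar); dashed lines mark 2-fold. Streak, node, posterior and endoderm lists sit to the right, at medians of 1.05 to 1.85, and cell cycle lists around 0.

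The signalling pathways differed in how many of their members passed 2-fold. Among 9 measured genes of the Nodal pathway none did, although 8 were above 0 (median 0.38). *Nodal* itself was at 26.5 and 25.9 CPM, a ratio of 1.02 (0.82 to 1.28). Its feedback inhibitor *Lefty1* was at 911 and 528 CPM (log2 ratio 0.79).

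WNT genes were divided. The ligand *Wnt3*, which induces the streak in the embryo, did not differ beyond its interval (39.1 and 37.9 CPM, ratio 1.03, 0.86 to 1.24), and neither did the target genes *Axin2* (1.20, 0.84 to 1.71) and *Lef1* (0.94, 0.75 to 1.17). In contrast, *Sp5*, a direct WNT target and transcriptional repressor, was at 85.8 and 36.0 CPM (2.38-fold, 2.04 to 2.78), and *Lgr5*, a receptor for R-spondins, at 7.96 and 2.67 CPM (2.98-fold, 1.71 to 5.39). With *Dkk1*, given above, these were the 3 of 9 measured target genes past 2-fold. Of the 8 measured ligands and receptors 1 was at least 2-fold higher, *Wnt5a*, a non-canonical ligand, at 12.2 and 3.24 CPM. With 19 and 23 UMIs in *T*-negative cells, *Lgr5* and *Wnt5a* reached the minimum through the *T*-positive cells. *Rspo3*, which encodes a secreted enhancer of WNT signalling and belongs to none of the lists, was the second highest of all genes, at 52.3 and 7.32 CPM (7.15-fold, 5.31 to 9.80).

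In the FGF list 0 of 5 measured members passed 2-fold. *Fgf8*, the ligand needed for cells to leave the streak, was at 292 and 166 CPM (1.76-fold, 1.63 to 1.89), and *Fgf5* at 175 and 125 CPM. *Fgf15*, a ligand found in neural ectoderm, was lower at 7.78 and 15.3 CPM. All 8 ERK target genes stayed within a log2 ratio of 0.43.

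Of 9 measured BMP genes, 4 were at least 2-fold higher. The ligands *Bmp4* (10.6 and 1.69 CPM) and *Bmp2* (12.7 and 2.81 CPM) were among them, with the inhibitor *Smad6* and the homeobox target *Msx1*. *Smad6* was under 2-fold in thinned cells (0.83), and the ratio of *Bmp4* rested on 6 cells that are described below. All 4 genes reached the minimum through the *T*-positive cells, with 12, 20, 18 and 36 UMIs in *T*-negative cells. Their count therefore describes the members that passed and nothing more. The immediate BMP targets *Id1*, *Id2* and *Id3* were within log2 ratios of -0.10 and 0.31. *Hand1*, a factor of extraembryonic and lateral mesoderm, had 0 UMIs in all EpiSC, against 621 CPM in *T*-positive and 869 CPM in *T*-negative d2 EB cells. Of 9 posterior genes 2 were measured, and both were at least 2-fold higher, the retinoic acid-degrading *Cyp26a1* (33.1 and 14.4 CPM) and *Greb1* (20.0 and 9.29 CPM). The 4 *Hox* genes of the list had 0 to 3 UMIs each. Also below the minimum, *Dll1* (15 and 30 UMIs) and *Hes7* (7 and 21 UMIs) went the other way, and *Aldh1a2* had 2 and 0 UMIs. The log2 ratios of *Dll1* and *Hes7* were -0.52 and -0.82, or 0.50 and -0.33 in thinned cells. With no minimum the median of the posterior list was -0.12.

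Pluripotency genes differed in both directions. Of 16 core and primed genes, 7 were above 0, the median log2 ratio was -0.11, and 1 was past 2-fold, *Otx2*, a homeobox factor of the anterior epiblast, visceral endoderm and anterior streak derivatives (92.8 and 42.8 CPM). In thinned cells its log2 ratio was 0.65, under 2-fold. *Sall4*, a zinc finger factor of pluripotency, was at 137 and 84.2 CPM (1.62-fold, 1.46 to 1.81). *Pou5f1* was at 1109 and 1398 CPM (ratio 0.79, 0.77 to 0.82), *Sox2* at 112 and 137 CPM, and *Utf1*, a chromatin-associated gene of pluripotent cells, at 219.6 and 369 CPM (0.59, 0.56 to 0.64). *Nanog* was at 43.0 and 45.7 CPM (0.94, 0.79 to 1.11). *Klf2*, a naive factor still detected in EpiSC, was at 34.5 and 56.7 CPM.

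The lists for other fates and states gave fewer members past 2-fold. Neural genes had a median of -0.12 with *Irx3* at least 2-fold higher (17.5 and 5.91 CPM, log2 ratio 0.80 in thinned cells) and *Sox3* lower at 3.18 and 7.04 CPM, just inside 2-fold on the log2 scale (-0.94). *Six3*, a factor of anterior neural tissue, had 28 UMIs in 13 *T*-positive cells and 0 in *T*-negative cells, below the minimum. Of 6 epithelial genes none passed, with *Cdh1* (E-cadherin) at 54.6 and 62.8 CPM. Of 5 mesenchymal genes 2 were at least 2-fold higher, *Cdh2* (N-cadherin, 42.1 and 16.0 CPM) and *Fn1* (fibronectin, 38.6 and 14.4 CPM). Neither was past 2-fold in thinned cells (0.82 and 0.51). *Fn1* was at 254.5 CPM in 17 *T*-positive cells with *Pou5f1* under 200 CPM, and without such cells in either set it was at 17.6 and 11.7 CPM. *Snai1*, the repressor of E-cadherin at the streak, had only 15 and 27 UMIs. Of 7 extraembryonic ectoderm markers 2 were measured, *Krt7*, a keratin, at least 2-fold higher (log2 ratio 1.58) and *Tfap2c*, an AP-2 factor, at -0.53. Of 6 PGC markers 3 were measured, with a median of -0.53: *Prdm1*, the germ cell regulator BLIMP1, also made by endoderm, was at 1.18 (0.39 in thinned cells), *Tfap2c* at -0.53 and the germ cell gene *Nanos3* at -0.90. *Dppa3*, a germ cell marker, had 1 and 10 UMIs. The 10 S phase genes (-0.27 to 0.01), the 10 mitosis genes (-0.42 to 0.10) and the 8 measured immediate early and heat shock genes (-0.33 to 0.41) stayed within 2-fold.

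The genes with the highest ratios outside the lists included *Sprr2a3*, which encodes a small proline-rich protein of cornified epithelia. It had 90 UMIs in 17 *T*-positive cells and 2 UMIs in 2 *T*-negative cells, and 1 cell held 29.3% of all its UMIs. The near-identical copies of the *Sprr2* family can share reads, so its identity is uncertain. *Psmb8*, a subunit of the immunoproteasome, was at 16.1 and 1.83 CPM, *Gm16702* at 11.0 and 1.41 CPM, and *Sox9*, a factor of cartilage and many progenitors, at 16.6 and 3.66 CPM. *Gm16702* lies near *T*, at chr17:8379045-8389468, upstream of the window printed above, and a link between them was not tested. With 13, 10 and 26 UMIs in *T*-negative cells, *Psmb8*, *Gm16702* and *Sox9* reached the minimum through the *T*-positive cells, as did *Sprr2a3*. The 10 lowest genes had log2 ratios of -1.54 to -1.14. *S100a6*, a calcium-binding protein, was the most abundant of them at 39.8 and 99.8 CPM, followed by *Sfn* (14-3-3σ) at 9.19 and 23.5 CPM. *S100a6* was detected in 47.0% and 50.0% of the cells, so its sum differed more than its detection, and its highest cell held 102 UMIs. Others were *Prss23*, *Cxcl14*, *Fabp3*, *Gadd45g*, *Dok2*, *Rab25*, *Cdkn2b* and *Pdlim2*.

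The levels changed in different ways with the number of *T* UMIs. Cells just inside the threshold, with 1 *T* UMI, lay between the cells with 0 and those with more for the streak factors. *Gsc* was at 26.6 CPM in cells with 0 *T* UMIs, 65.7 with 1, 121 with 2, 129 with 3 to 9 and 117 with 10 or more. *Foxa2* was at 20.3, 38.0, 97.9, 77.9 and 114 CPM across the same classes, and *Lhx1* at 31.7, 54.7, 104.5, 184 and 139 CPM. In thinned cells classed by their thinned *T* UMIs, with 18, 31 and 18 cells in the last 3 classes, *Gsc* was at 97.5, 138 and 52.7 CPM in them and *Lhx1* at 121, 220.3 and 63.2 CPM, so the order of these classes was not stable. Compared with cells without *T*, the cells with 1 *T* UMI were higher for 86 of the 97 genes and at least 2-fold higher for 22, with a median log2 ratio of 0.71 over the 97 and -0.01 over all genes. These cells had helped to choose the 97 genes. The class boundary at 10 UMIs was set after the values were seen.

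A different course was seen for genes that were high mainly where *T* was highest. *Rspo3* was at 7.32, 12.7, 15.4, 25.8 and 148 CPM in the order of classes given above, and *Bmp4* at 1.69 and 1.15 CPM, then 0 UMIs in both middle classes and 38.7 CPM with 10 or more *T* UMIs. *Sox17*, by contrast, was highest with 2 *T* UMIs (72.6 CPM) and at 26.7 CPM with 10 or more. *Utf1* was lower in each class than in the class before it, at 369, 292, 251, 198 and 139.6 CPM. In the thinned classes *Rspo3* was again highest with 10 or more *T* UMIs (203 CPM), *Sox17* was highest with 3 to 9 (55.1 CPM), and *Utf1* was at 351 CPM without *T* and 158 to 200.4 CPM with 2 or more. Before thinning, *Pou5f1* went from 1398 to 941 CPM. *Dnmt3b*, a de novo DNA methyltransferase of the primed state, was at 409, 459, 397, 376 and 226 CPM across the same classes. *Nodal* was between 19.8 and 31.0 CPM before thinning and between 20.3 and 42.1 CPM in the thinned classes.

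**Figure D3:**
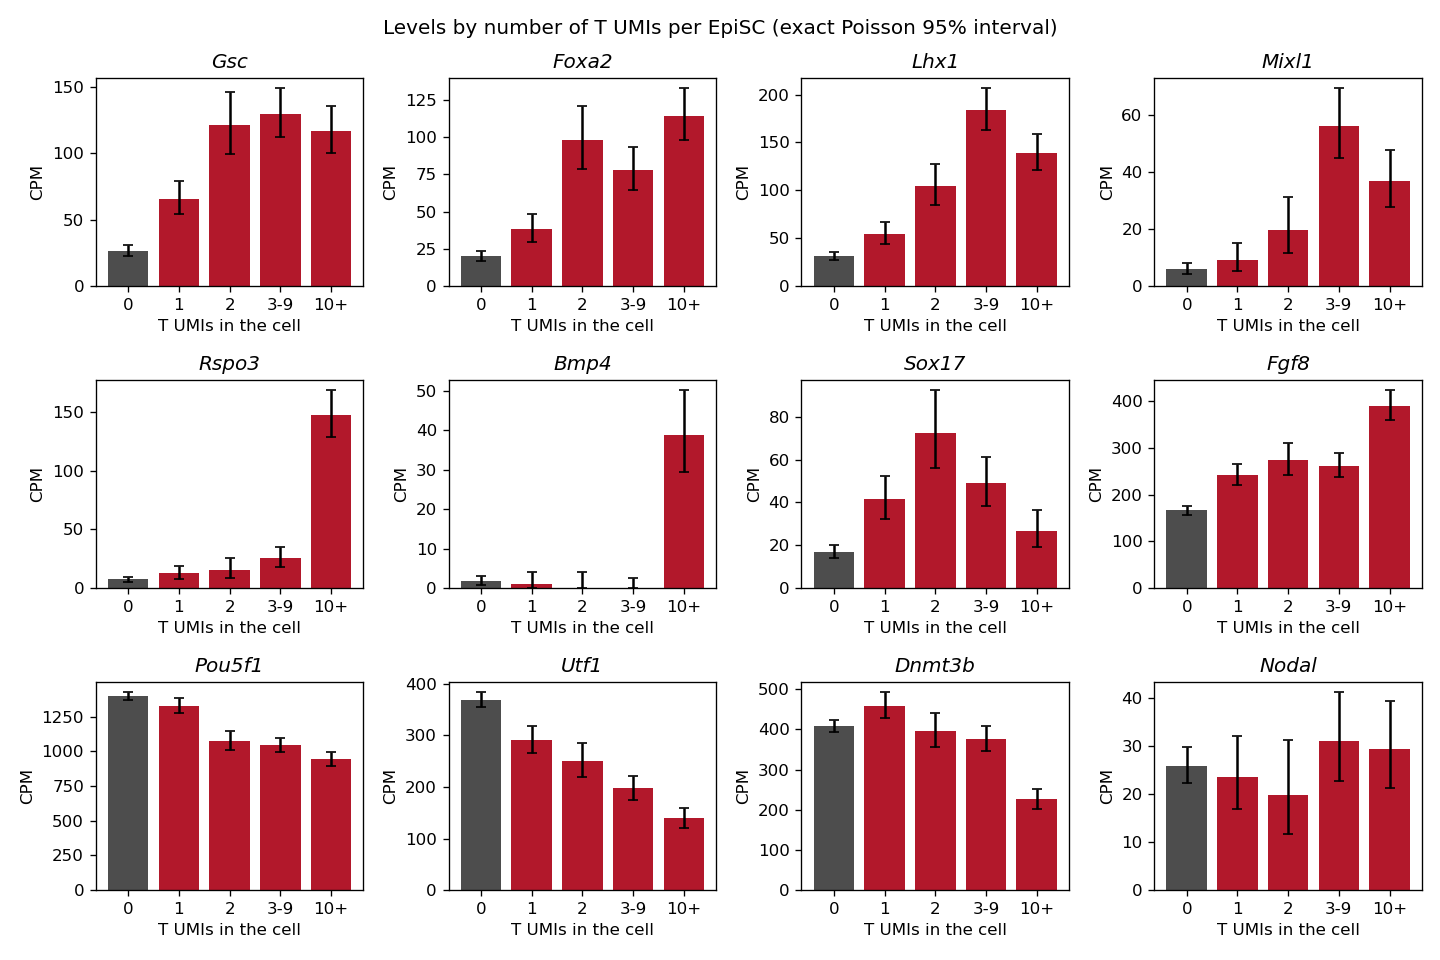
CPM of summed UMIs (y axes, from 0) of 12 genes in EpiSC with 0, 1, 2, 3 to 9 and 10 or more *T* UMIs (x axes), with exact Poisson 95% intervals. *Gsc* is at 117 to 129 CPM from 2 *T* UMIs on, *Rspo3* and *Bmp4* are high in the last class, and *Utf1* is lower in each successive class.

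At equal depth, streak factors were also found in more of the *T*-positive cells. Here *T* was called again after thinning. Of the 222 cells without *T*, 28 were too shallow to be kept, so some of the 219 thinned *T*-negative cells had held *T* UMIs before thinning. Among 116 *T*-positive and 219 *T*-negative thinned cells, *Gsc* was detected in 43.1% (interval 33.9 to 52.6) and 21.0% (15.8 to 27.0), *Foxa2* in 40.5% and 19.2%, *Lhx1* in 36.2% and 13.2%, *Mixl1* in 25.9% and 11.0%, and *Rspo3* in 34.5% and 13.7%. Before thinning, the shares for *Gsc* were 50.3% and 25.7%. For *Sox17* the shares were 15.5% (9.46 to 23.4) and 10.5% (6.77 to 15.3), intervals that overlap. At least 3 of the 14 streak factors were detected in 40 *T*-positive cells (34.5%, 25.9 to 43.9) and in 25 *T*-negative cells (11.4%, 7.53 to 16.4). None of the 14 was detected in 38 of the 116 *T*-positive cells (32.8%) and in 98 of the 219 *T*-negative cells (44.7%).

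The streak factors also occurred together within cells. Among *T*-positive cells, *Foxa2* was found in 76.0% of the 50 cells with *Gsc* and in 13.6% of the 66 cells without it. The same held without *T*, where *Foxa2* was found in 50.0% of the 46 cells with *Gsc* and in 11.0% of the others. *Lhx1* was found in 70.0% of *T*-positive cells with *Gsc* and 10.6% of those without, and *Eomes* in 76.0% and 9.09%. In *T*-negative cells *Lhx1* was in 50.0% of the cells with *Gsc* and 3.47% of those without. Cells that expressed the anterior streak factors were thus present on both sides of the *T* threshold.

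**Figure D4:**
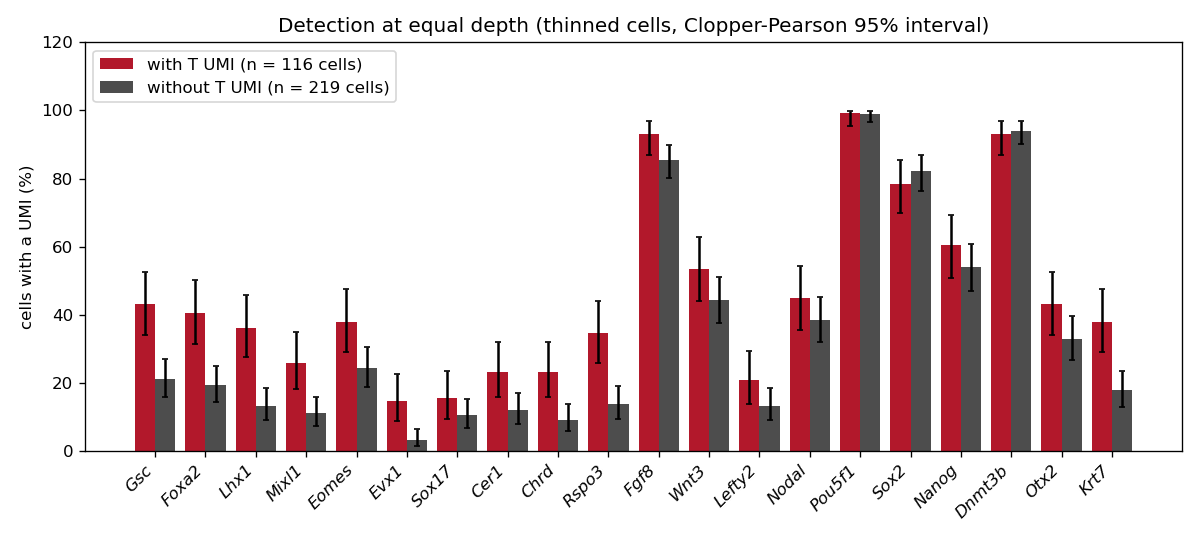
Share of EpiSC with at least 1 UMI of each gene (y axis, %) among thinned cells with *T* (red, 116 cells) and without *T* (grey, 219 cells), with Clopper-Pearson 95% intervals. *T* was called again after thinning. Streak factors from *Gsc* to *Evx1* and *Rspo3* are detected in more *T*-positive cells, whereas *Pou5f1* is detected in 99.1% of both.

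The 38 cells with most *T* were not alike. They are described by a grouping chosen after their values were seen, and the groups carry no test. In 18 of them, at least 3 of *Gsc*, *Foxa2*, *Lhx1* and *Mixl1* were detected. These cells had *T* at 393 CPM, *Gsc* at 183 CPM, *Foxa2* at 169.8 CPM and *Eomes* at 75.8 CPM, kept *Pou5f1* at 951 CPM, and had a median depth of 42751.5 UMIs. In 8 other cells none of the 4 factors was detected although *T* ranged from 15 to 24 UMIs per cell. *T* stood at 582 CPM in these, *Fgf8* at 426 CPM and *Pou5f1* at 1323 CPM, while *Rspo3* had 2 UMIs in all 8 cells. Their depth (23068 to 46844 UMIs) lay within the range of the 18 cells, and with 3 UMIs taken as the floor a level of up to 11.1 CPM of each factor could have been missed. Scrublet marked 1 cell in each of these groups.

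A further 6 cells with 10 to 37 *T* UMIs each held 5 to 12 UMIs of *Bmp4*. Outside these cells no EpiSC held more than 4 *Bmp4* UMIs, and among the 113 cells with 1 to 9 *T* UMIs the highest count was 1. *T* was at 1102 CPM in the 6 cells (927 to 1301), *Rspo3* at 817 CPM (667 to 990), the intermediate filament gene *Vim* at 991 CPM and *Fn1* at 603 CPM. Their *Pou5f1* counts were 3, 10, 1, 1, 0 and 1 UMIs in order of decreasing *T*, or 127 CPM in all (72.5 to 206). *Mixl1*, *Eomes* and *Utf1* had 0 UMIs, *Gsc* had 1, the cell adhesion gene *Epcam* was at 39.6 CPM and *Dnmt3b* at 39.6 CPM. The extraembryonic mesoderm factor *Hand1* and the mesoderm factor *Mesp1* had 0 UMIs in the 6 cells. Their depth was lower, from 10970 to 31637 UMIs, and Scrublet marked none of them.

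The ratio of *Bmp4* rested on these 6 cells: without them its log2 ratio was 0.24 in place of 2.11, while those of *Rspo3* (2.11 in place of 2.68) and *Gsc* (1.97 in place of 1.94) stayed past 2-fold. The last 6 of the 38 cells held 1 or 2 of the 4 factors. Among them *Fgf8* was at 680 CPM and *Sprr2a3* at 291 CPM, with 27 and 19 of its 48 UMIs in 2 cells. Another cell of this last group held 2 *Bmp4*, 8 *Rspo3*, 19 *Vim*, 1 *Pou5f1* and 0 *Fgf8* UMIs. It also held 36 of the 41 *Fn1* UMIs of the group. Apart from *Bmp4*, its counts lay near those of several *Bmp4* cells, so the limit of 5 *Bmp4* UMIs was not a sharp boundary.

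**Figure D5:**
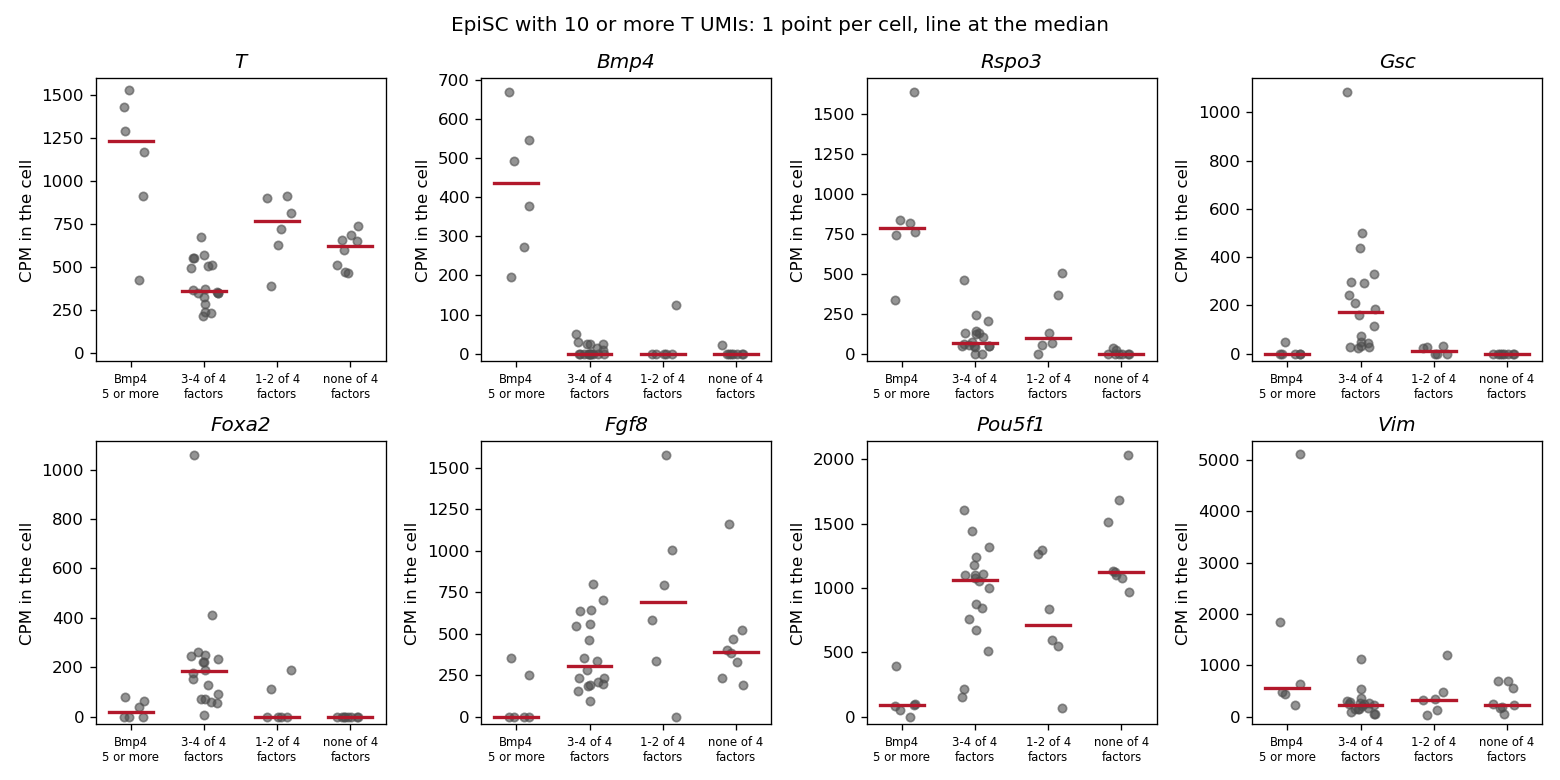
CPM per cell (y axes) of 8 genes in the 38 EpiSC with 10 or more *T* UMIs, split on the x axes into the 6 cells with 5 or more *Bmp4* UMIs and the remaining 18, 6 and 8 cells with 3 to 4, 1 to 2 or none of *Gsc*, *Foxa2*, *Lhx1* and *Mixl1*; points are cells and red lines medians. The *Bmp4* cells are high for *T* and *Rspo3* and, with 1 at 391 CPM, low for *Pou5f1*.

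To see how the *T* split compared with that in another library, the same division was made in d2 EB, with 219 *T*-positive and 318 *T*-negative cells. There, 183 of 9749 genes (1.88%) were at least 2-fold higher and 197 (2.02%) lower, around a median of -0.10 for all genes. Of the 97 genes higher in EpiSC, 72 were measured in d2 EB, 14 were at least 2-fold higher there as well and 9 at least 2-fold lower. The 14 were 14.4% of the EpiSC genes and 7.65% of the d2 EB genes, of which 104 were measured in EpiSC. Of the 21 genes lower in EpiSC, 12 were measured in d2 EB, 4 were at least 2-fold lower there and 1 was at least 2-fold higher. *Rspo3* (285 and 46.5 CPM), *Sprr2a3* (158 and 26.2 CPM) and *Mixl1* (29.0 and 6.12 CPM) were higher beside *T* in both libraries.

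Several streak factors of EpiSC were scarce in d2 EB, although *Mixl1*, *Evx1*, *Nkx1-2* and *Cdx2* were not. *Foxa2* was at 0.343 and 0.227 CPM there, *Eomes* at 0.686 and 0.227 CPM and *Gsc* at 2.06 and 3.40 CPM, while *Lhx1* was at 5.14 and 0.567 CPM. *Evx1* was at 38.1 and 20.4 CPM in d2 EB, against 8.66 and 1.69 CPM in EpiSC. *Nkx1-2* was at 12.3 and 14.4 CPM against 5.66 and 3.10 CPM, and *Cdx2* at 261 and 215 CPM against 16.1 and 9.29 CPM. The mesoderm factor *Mesp1*, with 5 UMIs in all EpiSC, was at 155 CPM in *T*-positive and 44.0 CPM in *T*-negative d2 EB cells. *Fgf8* had a log2 ratio of 2.64 in d2 EB and 0.81 in EpiSC, and *Pou5f1* 0.68 and -0.33. The PGC genes *Dnd1* and *Prdm14*, at 102 and 12.7 CPM in *T*-positive d2 EB cells, had 11 and 0 UMIs in EpiSC. The stages differ in medium, in the enzyme used for dissociation, in cell shape (aggregates or monolayer) and in library, and these cannot be told apart here.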

How the data were processed

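Single-cell libraries (10x Genomics 3′ v2 chemistry, EpiSC detached with Accutase and other stages with TripleExpress) were processed by the authors with Cell Ranger on GRCm38 and aggregated with its default normalization by mapped reads; the annotation is not given in the sources used here. The deposited values were whole UMI counts per gene and cell, not log-transformed. Cells were assigned to stages by the barcode suffix, through the list that accompanies the study. Symbols matched 27645 of 27998 gene identifiers. Total UMIs were 8757170 to 14649279 per library.

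UMIs were summed over cells with and without *T* and expressed as CPM; 1 CPM was added before log2 ratios were taken, genes with under 50 UMIs over both sets were left out, and the threshold was 2-fold. Poisson, conditional binomial (ratios) and Clopper-Pearson (shares) intervals were exact at 95%. For equal depth, cells were thinned to 21089 UMIs, the 10th percentile of EpiSC. Doublets were marked with Scrublet (scanpy 1.11.5) and kept. The code was tested on simulated data. Named genes were *T*, the members of 21 lists and the 10 highest and 10 lowest ratios; *Bmp4* cells, low-*Pou5f1* cells and the cells with many *T* UMIs were chosen after their values were seen. Members and lists were chosen with earlier results of these data known. Alternatives covered the *T* threshold, thinning, averaging, totals, doublets, the highest cells, pseudocount, minimum and fold. A second table, of another cell line, was not used here.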

Additional observations from a re-analysis of the deposited data

Results flagged for a closer look

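In 2 genes the split by *T* gave differences past 2-fold in opposite directions in EpiSC and in d2 EB among the named genes. *Dkk1*, the secreted WNT inhibitor, had a log2 ratio of 1.12 in EpiSC and -2.02 in d2 EB (64.9 and 29.4 CPM against 15.3 and 64.9 CPM, *T*-positive given first). In thinned EpiSC with *T* called again the ratio was 0.09. *Krt7* had a log2 ratio of 1.58 in EpiSC and -1.95 in d2 EB (49.5 and 15.9 CPM against 2.57 and 12.8 CPM). Each stage was 1 library and the difference between stages was not tested.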

How the results depend on the processing

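Of 324 comparisons of a count, list median or share with its value under an alternative, 296 stayed within 1.5-fold (counts) or within the counting interval; the exceptions follow. The 97 higher genes became 49 in thinned cells with *T* called again, 63 in thinned cells with *T* as called from all UMIs, 43 with a pseudocount of 5, 27 with at least 200 UMIs, 195 with no minimum and 346 at 1.5-fold. The 21 lower genes became 37 with 2 or more *T* UMIs, 42 with a pseudocount of 0.1, 2 with a pseudocount of 5, 40 with at least 20 UMIs, 2 with at least 200, 66 with no minimum and 172 at 1.5-fold. The streak median (1.85) was 2.16 with 2 or more *T* UMIs, 1.08 in thinned cells with *T* called again, 1.03 with a pseudocount of 5 and 0.73 with no minimum. The endoderm median was 0.53 and the neural median 0.34 in thinned cells with *T* called again, and the neural median 0.29 with *T* as called from all UMIs. The node median was 1.41 with a pseudocount of 5, the epithelial median -0.24 as a mean of per-cell CPM, and the naive median -0.70 with at least 200 UMIs. The posterior median (1.09, from 2 genes) was 0.26 with at least 20 UMIs and turned to -0.12 with no minimum, where the extraembryonic ectoderm median was -0.19; these settings bring in genes with few UMIs. The share of *T*-positive EpiSC was 34.6% after thinning and 26.5% with 2 or more UMIs. Leaving out doublets, the 5 cells with most *T*, or, as settings chosen after seeing the data, the 3 shared barcodes or the 6 *Bmp4* cells moved no count or median in this way. No paired analysis was possible because each stage was 1 library.

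Depth limits the low genes, and 52 of the 151 *T*-positive cells rest on 1 UMI. With 1 library, spread between cultures was not measured.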

Other observations

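Cells with little *Pou5f1* were found on both sides of the *T* split. The limit of 200 CPM used here was set after the values were seen. Below it lay 17 of 151 *T*-positive cells (11.3%, interval 6.70 to 17.4) and 12 of 222 *T*-negative cells (5.41%, 2.82 to 9.25). In the 12 *T*-negative cells, endoderm genes were high: *Sox17* was at 269 CPM, *Cer1* at 569 CPM, *Dkk1* at 587 CPM, *Gata6* at 156 CPM and *Hhex* at 229.9 CPM, and the keratin genes *Krt8* and *Krt18*, of simple epithelia, at 1432 and 1439 CPM. In the remaining 210 *T*-negative cells *Sox17* was at 6.45 CPM and *Krt8* at 52.8 CPM. *Sox17* was detected in 9 of the 12 cells and *Krt18* in all 12. In the 134 *T*-positive cells with *Pou5f1* at 200 CPM or more, *Sox17* was at 27.7 CPM and *Krt8* at 108 CPM. Between these 134 cells and the 210, *Cer1* was at 45.8 and 12.8 CPM, *Dkk1* at 37.2 and 6.30 CPM, and *Gata6* at 37.2 and 8.94 CPM. These values are from cells that were not thinned.

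The 17 *T*-positive cells with little *Pou5f1* held *Sox17* at 218 CPM, in 8 cells, and *Cer1* at 294.5 CPM, in 9 cells, together with *Bmp4* at 92.2 CPM, *Rspo3* at 196 CPM and *Fn1* at 254.5 CPM. *Rspo3* was at 3.54 CPM in the *T*-negative cells of this kind, where 1 UMI was found. Of the 6 cells with 5 or more *Bmp4* UMIs, 5 were among the 17. *Hand1* had 0 UMIs in all of these cells, and *Col1a1* had none either.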
